A study of Mus musculus with 2 samples.

Results

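The Homer family of mouse comprises Homer1, Homer2 and Homer3, and these 3 genes were followed here among the 55450 genes of the transcript tables, through their 29 of 141767 transcripts. Genes were taken by symbol and linked to the gene table by identifier. The family was selected on measured values of these same libraries (transcript TPM and shares), so levels and ratios of its members are descriptions with no test. The study sequenced total RNA from hippocampus of female B6CASTF1/J mice, the F1 of C57BL/6J and CAST/EiJ, at 8 to 10 months of age. Replicate 2 came from animal 5 and replicate 1 from animal 1, each as 1 library made from 300 ng of total RNA to which ERCC spike-ins (synthetic transcripts) had been added. Both animals share strain, sex, age range, supplier and tissue term, and no treatment is given, so they form 1 group and no conditions were compared. The labels give both the same donor identifier, and they were read as separate animals from their animal numbers. The tissue term names a hippocampal layer without saying which, and reads of both parental alleles were assigned on build mm10.

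Homer proteins are scaffolds of the postsynaptic density. An EVH1 domain at their N-terminus binds proline-rich motifs in group I metabotropic glutamate receptors, inositol trisphosphate and ryanodine receptors and Shank proteins, and in long forms a C-terminal coiled coil links Homer proteins to each other. Neuronal activity induces short Homer1 forms, Homer1a and Ania-3, which keep the EVH1 domain, lack the coiled coil and so uncouple long Homer from its partners.

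The annotation places the choice between these forms at the end of exon 5 of Homer1 (chromosome 13, exon 5 ending at base 93356079, mm10, plus strand). The sequences below are shown because they tell the forms apart. Each gives the last 30 bases of exon 5 in lower case, then in capitals up to 60 of the coding bases that follow in that transcript, from GENCODE M21.

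Homer1-204: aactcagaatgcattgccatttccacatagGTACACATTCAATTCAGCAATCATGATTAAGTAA

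Homer1-207: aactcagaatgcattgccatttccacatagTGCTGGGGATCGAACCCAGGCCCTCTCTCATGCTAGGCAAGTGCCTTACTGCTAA

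Homer1-206: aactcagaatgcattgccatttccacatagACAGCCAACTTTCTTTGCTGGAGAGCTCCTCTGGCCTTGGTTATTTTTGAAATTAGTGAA

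Homer1-203: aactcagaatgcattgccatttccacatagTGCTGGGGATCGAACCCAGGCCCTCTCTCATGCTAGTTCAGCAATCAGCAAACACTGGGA

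Homer1-202: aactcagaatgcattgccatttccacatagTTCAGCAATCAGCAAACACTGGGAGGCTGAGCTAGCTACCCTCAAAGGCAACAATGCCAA

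Homer1-204 reads straight on from exon 5, adds 11 codons and a stop, and encodes 186 codons in all, the structure of Homer1a. Homer1-207 carries the 36 bases of exon 6 and then runs on past it, adding 18 codons for a total of 193. Homer1-206 joins exon 5 to a separate last exon within intron 5, the arrangement described for Ania-3, and encodes 233 codons. Homer1-205 ends in the same last exon from a start 35 bases further upstream and encodes 203 codons. These 4 transcripts are called short below, since their last exon ends before the exons of the coiled coil. Homer1-203 holds exon 6 and all later exons and encodes 366 codons, the length of Homer1c. Homer1-202 skips exon 6 and begins at another first exon, and its sequence after exon 5 matches that of Homer1-203 once the 36 bases of exon 6 are passed over. Homer1-201 has the tail of Homer1-202 with 354 codons, the length of Homer1b, and these 3 transcripts are called long. Homer1-208 to Homer1-211 are coding but lack exon 5 or exons of the coiled coil and are grouped as other, and Homer1-212 is noncoding.

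Depth was 28356913 expected counts on annotated genes in replicate 2 and 34147402 in replicate 1. An expected count is a count of reads in which a read that matches several transcripts is shared among them. All 6 markers of hippocampal pyramidal neurons and all 5 of dentate granule neurons reached 1 TPM (a level per length and depth) in both libraries. The 6 pyramidal markers summed to 2035 TPM in replicate 2 and 1853 in replicate 1. Most of each sum was Camk2a, at 1633 TPM in replicate 2 and 1486 in replicate 1. Cerebellar markers summed to 3.3 TPM in replicate 2 and 1.9 in replicate 1, with Pcp2 at 0 in both libraries in the gene table. Choroid plexus markers set the libraries apart. All 8 had counts in both libraries and summed to 648.6 TPM in replicate 2 and 30.3 in replicate 1, and the 7 with enough counts were all at least 2-fold higher in replicate 2. The part of this difference in the Homer values was not tested.

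Homer1 was the most abundant member. Its level was 59.4 TPM in replicate 2 and 83.9 in replicate 1 (mean 71.7 ± 17.3 TPM, SD, n = 2), which placed it at rank 1567 of 22015 protein-coding genes. Homer2 stood at 34.9 TPM in replicate 2 and 43.3 in replicate 1 (39.1 ± 5.93 TPM). Homer3 stood at 34.5 TPM in replicate 2 and 43.5 in replicate 1 (39.0 ± 6.41 TPM). All 3 genes were lower in replicate 2, and Homer1 held 46.1% of the summed Homer TPM there and 49.1% in replicate 1. In bulk tissue, fewer cells of a type and less RNA per cell cannot be told apart. Homer1 lay above both other genes in each library and each table, with a gap larger than the SD of either gene. Homer2 and Homer3 did not differ beyond their spread in the gene table. In the second transcript table, summed per gene, Homer3 was 1.19 times the level of Homer2 in replicate 2 and 1.37 times in replicate 1.

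**Figure D1:**
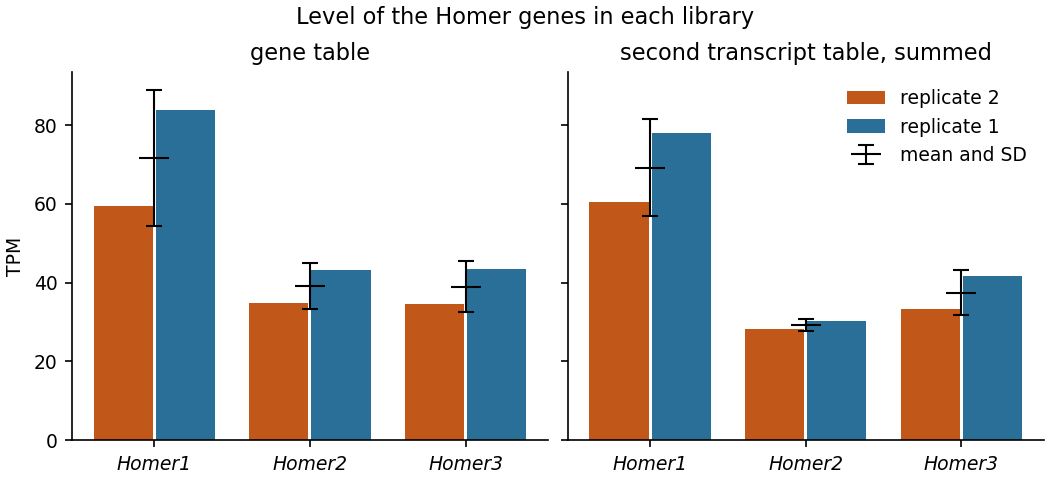
TPM of Homer1, Homer2 and Homer3 in replicate 2 (orange) and replicate 1 (blue), from the gene table (left) and from the second transcript table summed per gene (right). Bars are single libraries and black marks are the mean and SD over both. Homer1 is highest in each library, at 59.4 TPM in replicate 2 and 83.9 in replicate 1 of the gene table.

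Homer1 (ENSMUSG00000007617.18, chromosome 13, 93299635 to 93405129, plus strand) had 3454 expected counts in replicate 2 and 6234 in replicate 1. After TMM scaling the log2 ratio of replicate 2 over replicate 1 was -0.58, with a 95% counting interval of -0.64 to -0.52, or 1.496-fold lower in replicate 2. Of the 14434 genes with a mean count of at least 50, 352 (2.44%) had a ratio at or below that of Homer1. Homer2 (ENSMUSG00000025813.14, chromosome 7, 81600481 to 81707527, minus strand) had 3354 counts in replicate 2 and 4914 in replicate 1, a log2 ratio of -0.28. Homer3 (ENSMUSG00000003573.15, chromosome 8, 70282827 to 70294361, plus strand) had 1065 counts in replicate 2 and 1524 in replicate 1, a log2 ratio of -0.25. The intervals, which cover counting error only, lay below 0 for all 3 genes. The median size of the log2 ratio over all genes tested was 0.137, below the size of the ratio of each Homer gene. None of the 3 reached the 2-fold criterion, namely a size of log2 ratio of 1 or more at a mean count of at least 50 with an interval that leaves out 0, which 164 of 14434 genes (1.14%) met.

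Within Homer1 the TPM of the libraries differed most in the read-through form in both tables, although the log2 ratio and share of Homer1-211 differed more in the second table. Homer1-204 stood at 5.64 TPM in replicate 2 and 17.3 in replicate 1 in the first transcript table, and at 4.97 TPM in replicate 2 and 14.5 in replicate 1 in the second. It was lower in replicate 2 by a similar factor in both tables. Its expected counts were 557.3 in replicate 2 and 2052 in replicate 1, a log2 ratio of -1.61 with a counting interval of -1.75 to -1.48. The second table gave a log2 ratio of -1.54. Homer1-204 took 9.49% of the TPM of the gene in replicate 2 and 20.7% in replicate 1, and 8.21% in replicate 2 and 18.6% in replicate 1 by the second table.

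The other short forms were lower in replicate 2 by less. Homer1-207, with the extended exon 6, stood at 13.1 TPM in replicate 2 and 20.4 in replicate 1, a log2 ratio of -0.63, and its share of the gene was 22.0% in replicate 2 and 24.3% in replicate 1. This form has 345 bases of its own at its 5′ end besides its unique 3′ end, since it starts upstream of all other coding Homer1 transcripts. A read from that stretch of first exon matches no other annotated Homer1 transcript, whichever 3′ end its molecule had. Homer1-206 stood at 3.51 TPM in replicate 2 and 4.35 in replicate 1, a log2 ratio of -0.30 with an interval of -0.61 to -0.004. Homer1-205 stood at 0.88 TPM in replicate 2 and 1.35 in replicate 1 and fell under the count minimum. The 2 transcripts with the Ania-3 arrangement together held 7.39% of the gene in replicate 2 and 6.79% in replicate 1.

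The summed TPM of the long forms differed between replicate 2 and replicate 1 by -8.61% in the first table and -14.6% in the second, against -46.8% and -46.6% for the short forms. Homer1-203 stood at 22.5 TPM in replicate 2 and 23.3 in replicate 1, a log2 ratio of -0.04 with an interval of -0.15 to 0.07, but in the second table at 17.0 TPM in replicate 2 and 20.1 in replicate 1, a log2 ratio of -0.24 with an interval of -0.35 to -0.13. Homer1-202 stood at 13.6 TPM in replicate 2 and 16.2 in replicate 1, a log2 ratio of -0.24 with an interval of -0.36 to -0.13, and the second table gave -0.20. Of the 1666 bases found in no other Homer1 transcript, 1339 lie in its 3′ UTR. A read from there matches Homer1-202 alone, whichever first exon its molecule had. Homer1-201 was listed at 0 in both libraries and both tables. Its exons contain no base that is its own, and those of Homer1-203 contain none either, so no single base is covered by either transcript alone. Between these 2, Homer1-203 starts further upstream and holds exon 6, while Homer1-201 runs further at its 3′ end. The share of Homer1-203 was 37.9% in replicate 2 and 27.7% in replicate 1, but 28.1% in replicate 2 and 25.8% in replicate 1 by the second table.

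**Figure D2:**
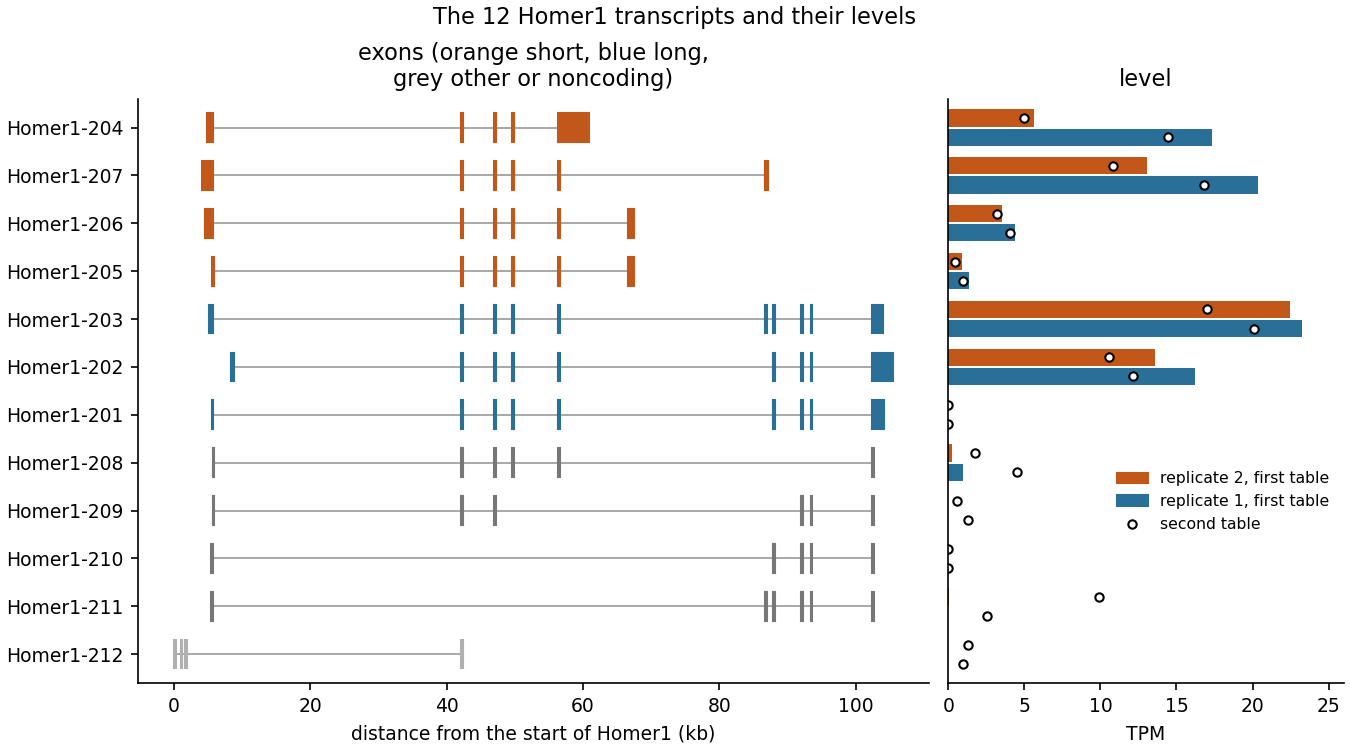
Left, exons of the 12 Homer1 transcripts by distance from the start of the gene in kb, with exons under 0.25 kb drawn 0.25 kb wide. Right, TPM of each transcript in replicate 2 (orange, upper bar) and replicate 1 (blue, lower bar) in the first transcript table, with open circles for the second. Homer1-204, whose exon 5 runs on into the intron, shows the widest gap of the short forms, 5.64 TPM in replicate 2 and 17.3 in replicate 1.

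Summed by class, short Homer1 stood at 23.1 TPM in replicate 2 and 43.4 in replicate 1, and long Homer1 at 36.1 TPM in replicate 2 and 39.5 in replicate 1. Short forms were the smaller class in replicate 2 and the larger in replicate 1. The 3′ ends of all short forms are intron sequence in the long forms, so reads of unspliced Homer1 RNA would also match them. Of the 709 bases unique to Homer1-207, 345 lie at its 5′ end and do not show how a molecule ends. The part of either in the class sums and ratios was not tested. The ratio of short over long TPM was 0.639 in replicate 2 and 1.10 in replicate 1 (mean 0.869 ± 0.325, SD, n = 2). The second table gave 0.703 in replicate 2 and 1.13 in replicate 1. For the read-through form alone, the ratio over long forms was 0.156 in replicate 2 and 0.439 in replicate 1, and 0.180 in replicate 2 and 0.448 in replicate 1 by the second table. Of the 24.5 TPM by which Homer1 was lower in replicate 2, Homer1-204 made up 47.8%, Homer1-207 29.9% and the long forms 13.9%. By the second table these parts were 54.5%, 34.5% and 27.0% of 17.4 TPM, and sum to over the whole because other transcripts were higher in replicate 2.

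**Figure D3:**
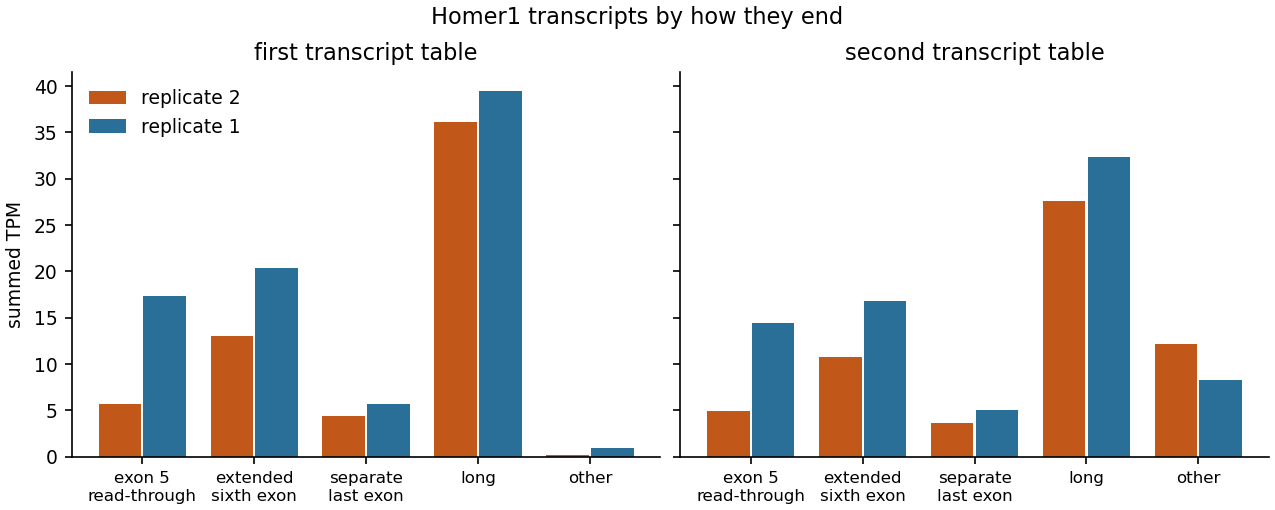
Summed TPM of Homer1 transcripts by how they end, in replicate 2 (orange) and replicate 1 (blue), from the first (left) and the second transcript table (right). Of the classes by end, the read-through form has the widest gap in TPM between libraries in both tables, while the transcripts grouped as other are near 0 in the first table and reach 12.2 TPM in replicate 2 and 8.32 in replicate 1 in the second.

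Of the 12 Homer1 transcripts, 5 had a mean count of at least 50 in the first table and 1 of them, Homer1-204, was at least 2-fold lower in replicate 2, a call that 5.57% of all 31480 transcripts tested met. In the second quantification 6 were tested and again Homer1-204 alone was called lower, against 5.31% of 34897 transcripts. Both tables called 2.27% of the 28540 transcripts tested in both lower. Reads that match several transcripts are divided among them by a model, and the deposited posterior SD measures the uncertainty of that division. For Homer1-204 the posterior SD was 11.95 counts in replicate 2 and 21.9 in replicate 1, 0.51 and 0.48 times the square root of the count. For the other tested Homer1 transcripts this multiple was larger, at 0.99 and 1.06 for Homer1-202 and 1.37 and 1.54 for Homer1-203. It was 1.20 and 1.11 for Homer1-207 and 2.35 and 2.71 for Homer1-206. The counting intervals of these forms leave this uncertainty out. Among the 11818 transcripts whose posterior SD was no larger than the square root of the count in both libraries, a subset taken after the values were seen, 0.575% were at least 2-fold lower. Homer1-204 belongs to this subset, with 4383 exonic bases found in no other Homer1 transcript, of which 4349 lie in its 3′ UTR. Those bases are intron sequence in the long forms, so reads of unspliced Homer1 RNA in total RNA would also match them. The posterior SD does not cover such reads, and their part in the level, share and ratios of Homer1-204 was not tested. The fall of its share by 11.2 percentage points was of a size met by 7.29% of 13367 transcripts in the first table, and the 10.4 points of the second table by 7.86% of 15636, where a fall of at least 10 points in genes with a mean count of at least 1000 was counted. Since the family was selected on these values, the background shares place it and support nothing.

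**Figure D4:**
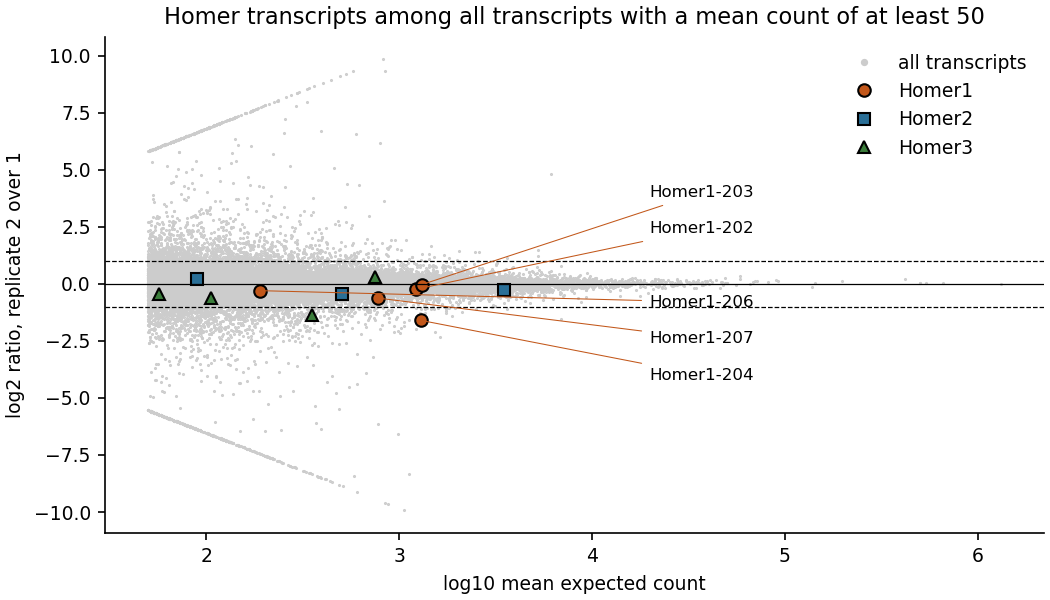
Log2 ratio of replicate 2 over replicate 1 against log10 mean expected count for every transcript with a mean count of at least 50 (grey), with transcripts of Homer1 (orange circles, labelled), Homer2 (blue squares) and Homer3 (green triangles). Dashed lines mark 2-fold, and slanted grey lines are transcripts with 0 counts in 1 library. Homer1-204 lies at -1.61 among transcripts of similar count, and Homer3-201 at -1.35.

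The tables differed most on Homer1 transcripts outside the short and long classes. Homer1-211, which skips exons 2 to 5, was listed at 0.01 TPM in replicate 2 and 0 in replicate 1 in the first table, but at 9.90 TPM in replicate 2 and 2.57 in replicate 1 in the second. The second table called it at least 2-fold higher in replicate 2, as it did 4.76% of transcripts. There Homer1-211 held 16.4% of the gene in replicate 2 and 3.29% in replicate 1, against 8.21% and 18.6% for Homer1-204. Homer1-208 stood at 0.21 TPM in replicate 2 and 0.96 in replicate 1 in the first table and at 1.73 TPM in replicate 2 and 4.48 in replicate 1 in the second. Homer1-209 was listed at 0 in the first table and at 0.565 TPM in replicate 2 and 1.27 in replicate 1 in the second. The noncoding Homer1-212 was likewise at 0 in the first table, and at 1.31 TPM in replicate 2 and 0.984 in replicate 1 in the second. Homer1-210 was listed at 0 throughout. In all, 1 of 6 Homer1 transcripts with a mean of at least 1 TPM over the tables lay 2-fold or more apart between tables in replicate 2 (27.0% of all transcripts) and 2 of 8 in replicate 1 (26.8%). Homer1-202, Homer1-203, Homer1-204, Homer1-206 and Homer1-207 were within 2-fold between tables in both libraries.

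Homer2 had 2 main transcripts, and none of its 3 tested transcripts in the first table or 2 in the second was called. Of all transcripts tested, 5.57% were called lower in the first table, and 5.31% lower and 4.76% higher in the second. Homer2-202, with a 3′ UTR of 9772 bases, stood at 14.8 TPM in replicate 2 and 18.0 in replicate 1, a log2 ratio of -0.28. Homer2-201, with 343 codons, stood at 13.4 TPM in replicate 2 and 18.3 in replicate 1, a log2 ratio of -0.44. Homer2-206, with 354 codons, stood at 3.24 TPM in replicate 2 and 2.81 in replicate 1 in the first table and at or near 0 in the second. The noncoding Homer2-207 stood at 1.88 TPM in replicate 2 and 1.65 in replicate 1 in the first table, against 3.08 TPM in replicate 2 and 0 in replicate 1 in the second. Between tables, 1 of 4 Homer2 transcripts lay 2-fold or more apart in each library, against 27.0% of all transcripts in replicate 2 and 26.8% in replicate 1.

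Homer3 transcripts overlap closely and their reads were divided with the widest uncertainty of the family. Homer3-201 stood at 4.40 TPM in replicate 2 and 11.4 in replicate 1, with a log2 ratio of -1.35, and was called lower in both tables. It was the 1 called of 4 Homer3 transcripts tested in the first table and of 5 in the second. Of all transcripts tested in both tables, 2.27% were called lower in both. Its 172.4 counts in replicate 2 and 534.1 in replicate 1 carried a posterior SD of 176 and 213 counts, and it has no exonic base of its own. Homer3-203 stood at 18.1 TPM in replicate 2 and 15.1 in replicate 1 in the first table and at 7.48 TPM in replicate 2 and 8.18 in replicate 1 in the second. Both encode 359 codons. Homer3-206, with 356 codons, was listed at 0 in the first table and at 6.65 TPM in replicate 2 and 4.77 in replicate 1 in the second. The retained-intron transcript Homer3-207 stood at 5.60 TPM in replicate 2 and 8.74 in replicate 1, and Homer3-208, also with a retained intron, at 4.20 TPM in replicate 2 and 5.80 in replicate 1. Homer3-202 stood at 0.56 TPM in replicate 2 and 1.03 in replicate 1, but at 3.10 TPM in replicate 2 and 4.43 in replicate 1 in the second table. Between tables, 3 of 6 Homer3 transcripts lay 2-fold or more apart in replicate 2 and 2 of 6 in replicate 1, against the same 27.0% and 26.8% of all transcripts.

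The coding sequence of Homer1 is closer to those of Homer2 and Homer3 before the end of exon 5 than after it. Over the 513 aligned bases that Homer1-203 has before the end of exon 5, Homer2-206 was 70.4% identical, and over the 537 after it 59.4%. Homer3-203 was 68.7% identical over 505 bases before that point and 57.0% over 544 after it. The 60-base stretch below, within the part that encodes the EVH1 domain, had the most bases shared by all 3 genes (46), and capitals mark the 14 positions at which they are not all the same.

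Homer1-203: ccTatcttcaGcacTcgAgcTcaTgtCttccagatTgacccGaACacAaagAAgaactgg

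Homer2-206: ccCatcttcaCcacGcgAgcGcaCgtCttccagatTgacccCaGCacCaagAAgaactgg

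Homer3-203: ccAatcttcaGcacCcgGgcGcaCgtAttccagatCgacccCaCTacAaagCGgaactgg

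The window covers coding bases 13 to 72 of Homer1 and Homer2 and 22 to 81 of Homer3, counted from the A of the start codon. The posterior SD of the gene counts was 0 for all 3 genes in both libraries.

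Upstream of Homer1, the RefSeq start at base 93303757 coincides with the first base of Homer1-207. The start of Homer1-204 lies 738 bases downstream of it and that of Homer1-203 1042 bases downstream. The 250 bases before the RefSeq start (GRCm38.p6, chr13:93303507-93303756, plus strand) are shown because they hold 3 copies of TGACGT, in capitals. TGACGT makes up 6 of the 8 letters of the cAMP response element TGACGTCA, the binding site of CREB, an activity-regulated factor.

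Homer1 upstream: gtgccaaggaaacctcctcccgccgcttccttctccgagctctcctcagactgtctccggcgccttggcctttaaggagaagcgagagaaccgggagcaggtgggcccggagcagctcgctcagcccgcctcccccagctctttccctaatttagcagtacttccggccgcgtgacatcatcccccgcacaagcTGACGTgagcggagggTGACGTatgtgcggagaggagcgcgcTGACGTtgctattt

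The matches begin 56, 40 and 14 bases before the start, all on the plus strand, and do not overlap. Both strands were searched, and TGACGT was found in 6.47% of 32851 RefSeq promoters of that length, with 3 or more copies in 50 of them (0.152%). The full TGACGTCA was found in 1.55% of promoters and in none of the 5 of the Homer genes. The second RefSeq start of Homer1, where Homer1-202 begins 4277 bases downstream, had no TGACGT in its 250 bases, and neither did the 2 promoters of Homer2 or the one of Homer3. Of the 15 immediate early genes with a RefSeq promoter, 8 held TGACGT (53.3%), against 7.3% of 27025 genes.

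ATTTA, the core of AU-rich elements in short-lived mRNAs, was counted in 3′ UTRs. Homer1-204 held 17 copies in 4349 bases, or 3.91 per kb, a density reached by 9.78% of 16508 transcripts with a 3′ UTR of at least 1000 bases, whose median was 1.69 per kb. The long forms were denser, with 19 copies in 2900 bases in Homer1-202 (6.55 per kb, reached by 0.87%) and 11 in 1452 bases in Homer1-203 (7.58 per kb, reached by 0.31%). Homer2-202 had 1.13 per kb, and Homer3-203 had 0.84 per kb.

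Since Homer1a is an activity-induced transcript, other such genes were set beside it. Immediate early genes, which neuronal activity switches on within minutes, lay lower in replicate 2 in 17 of 17 tested members of a list of 19. All genes tested did so in 51.7%. Their median log2 ratio was -0.70, against -0.01 for all genes, and they summed to 249.6 TPM in replicate 2 and 432.7 in replicate 1. Earlier results of these libraries had shown this, so it is not independent of the choice of Homer1. The 2-fold criterion was met by 4 of them, all lower, against 0.513% of all genes, and by 7 when libraries were scaled to ERCC totals, where all 17 were again lower, against 1.16% of all genes called lower and 87.0% of all genes lower at that scaling. Arc, a synaptic plasticity protein and the highest of the list by mean TPM, stood at 15.8 TPM in replicate 2 and 67.7 in replicate 1, a log2 ratio of -2.08. Several members lay above Arc in replicate 2, with Egr3 the highest there at 39.0 TPM. Fos, a transcription factor, stood at 1.78 TPM in replicate 2 and 8.49 in replicate 1, a log2 ratio of -2.21. Egr1, a zinc finger factor, had a log2 ratio of -1.11, and the orphan nuclear receptor Nr4a1 one of -1.06. The lowest member by mean TPM, Maff, stood at 0.70 TPM in replicate 2 and 0.59 in replicate 1 and was not tested. Egr2, with 6 counts in replicate 2 and 92 in replicate 1, was not tested either. The log2 ratio of Homer1-204, -1.61, lay between those of Arc and Egr1, while that of the whole gene, -0.58, lay above the median of the list. The other tested short forms, Homer1-207 at -0.63 and Homer1-206, with the Ania-3 arrangement, at -0.30, also lay above that median. Whether activity differed between the animals was not tested.

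Delayed activity-regulated genes, which follow activity over hours, were mixed in direction. Of 12 members, 4 were lower and 8 higher in replicate 2, none met the 2-fold criterion, and the median log2 ratio was 0.07, while scaling to ERCC totals, with 87.0% of all genes lower, left 8 lower and 4 higher. The highest, the kinase Plk2, stood at 149.0 TPM in replicate 2 and 123.1 in replicate 1. The lowest, the activin subunit Inhba, stood at 4.02 TPM in replicate 2 and 6.23 in replicate 1.

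**Figure D5:**
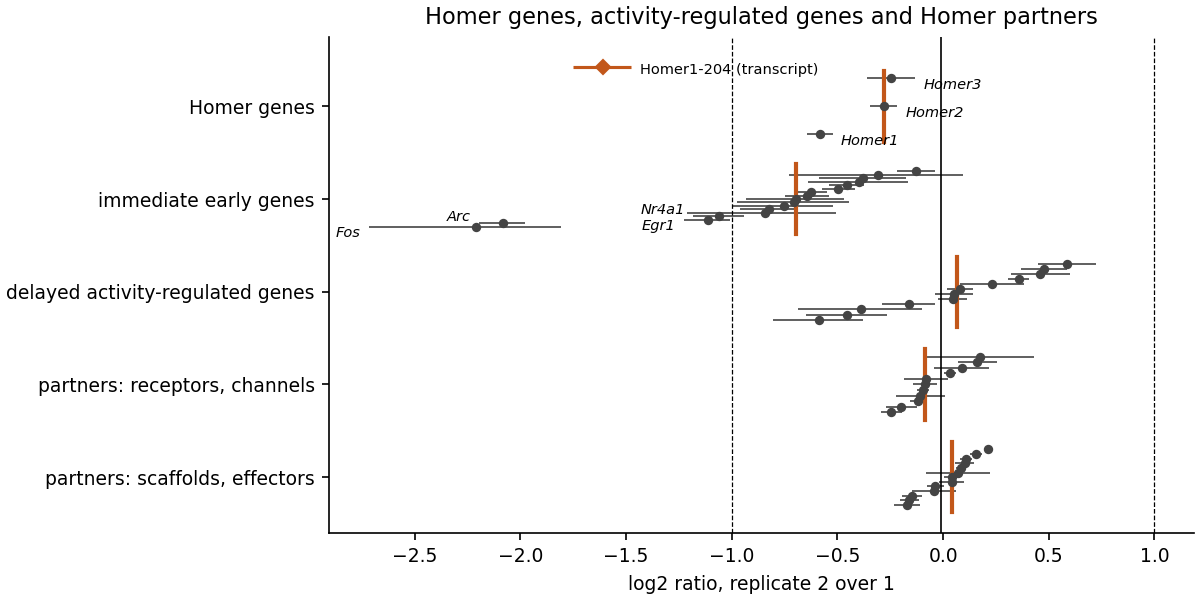
Log2 ratio of replicate 2 over replicate 1 for the tested members of 5 gene lists, with 95% counting intervals. Orange bars are list medians, the black line is the median of all genes, dashed lines mark 2-fold, and the diamond is the transcript Homer1-204. Immediate early genes all lie below 0, with Fos, Arc, Egr1 and Nr4a1 past 2-fold, and both partner lists lie around 0 with TMM scaling, but below it with scaling to ERCC totals.

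Genes whose proteins bind long Homer or lie downstream of it were near level. Of 11 receptors and channels, 7 were lower and 4 higher in replicate 2, none met the 2-fold criterion, and the median log2 ratio was -0.09, while with scaling to ERCC totals all 11 were lower, as were 87.0% of all genes. The highest, the inositol trisphosphate receptor Itpr1, stood at 145.4 TPM in replicate 2 and 155.7 in replicate 1, and the lowest, Itpr3, at 1.62 TPM in replicate 2 and 1.44 in replicate 1. Grm5, the metabotropic glutamate receptor mGluR5 and a main ligand of the EVH1 domain, is named after its values were seen and stood at 115.2 TPM in replicate 2 and 123.0 in replicate 1. Of 13 scaffolds and effectors, 5 were lower and 8 higher, none met the criterion, and the median was 0.04, while with scaling to ERCC totals all 13 were lower, against the same 87.0% of all genes. The highest, Dlg4 (PSD-95), stood at 437.7 TPM in replicate 2 and 402.9 in replicate 1. The lowest, the phospholipase Plcb4, stood at 11.3 TPM in replicate 2 and 11.8 in replicate 1.

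Among 1644 protein-coding genes within 1.5 times the mean TPM of Homer1, 9 had a log2 ratio at or below that of Homer1. The 5 with the nearest ratio over the 2 libraries were the ubiquitin ligase Herc3 (-0.59), the histone deacetylase Hdac4 (-0.62), the ribosomal protein gene Rpl10 (-0.52), the synaptotagmin Syt4 (-0.52) and the disulphide isomerase Pdia3 (-0.67).

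Other annotated genes overlap the Homer loci. Entries that GENCODE marks as still to be tested by experiment lie in intron 1 of Homer1 on its strand, where Gm47075 had 36 counts in replicate 2 and 88 in replicate 1 and Gm47088 had 21 counts in replicate 2 and 62 in replicate 1. Both were lower in replicate 2, with log2 ratios of -0.98 and -1.22, and neither had the mean count of 50 or more together with the 2-fold size that the criterion asks. Reads of unspliced Homer1 RNA would also match these 2 entries, and their part in the counts was not tested. The Homer2 locus holds Gm26149 and Gm44570, both at 0 counts. Ddx49, an RNA helicase gene, overlaps the 3′ end of Homer3 on the other strand and had 546 counts in replicate 2 and 570 in replicate 1. Whether reads were counted by strand is not stated, so reads of Homer3 and Ddx49 in their overlap may not be separated.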

How the data were processed

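Total RNA-seq of 2 hippocampal libraries was used as deposited. Each library has a gene table and a first transcript table in the column layout of RSEM and a second transcript table in that of kallisto, on mm10 with GENCODE M21, per the file headers and accompanying notes. Not given in the sources used here are the aligner, tool versions and strand setting. Expected counts (estimated counts in the second table) were deposited without normalisation and rounded to whole numbers here before ratios. TPM and FPKM were deposited after length and depth normalisation by the authors, over all entries, spike-ins included. The percent of a gene's TPM per transcript was deposited and recomputed here, with a largest gap of 0.02 points. The deposited posterior SD, a signal in units of counts, covers read assignment only.

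For log2 ratios (replicate 2 over replicate 1), libraries were scaled with TMM over genes with a mean count of at least 10 (edgeR 4.0.16, R 4.3.3) and a prior count of 2. The ratio script was tested on simulated gene counts. Exact Clopper-Pearson 95% intervals cover counting error only, as no molecular identifiers are named. They compare libraries, so no p-value was computed, and with 1 group n is 2 for every SD. Alternatives used DESeq2 1.42.0 size factors, library totals, ERCC totals, other count minimums, FPKM and the second table. Structures came from GENCODE M21, promoters from RefSeq on GRCm38.p6, and coding sequences were aligned globally in Biopython 1.88. Motifs were matched exactly. Named genes were the members, every Homer1 transcript, Homer2 and Homer3 transcripts with at least 5% of their gene in either library and table, the highest, lowest and 2-fold members of each list, and the 5 genes nearest to Homer1. Members and lists were chosen with earlier results of these data known.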

Additional observations from a re-analysis of the deposited data

How the results depend on the processing

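Directions of the Homer genes and of Homer1-204 held under every scaling, table and prior count tried. Of 111 alternative values for 22 results, 24 leave out a library. With 2 libraries such a value is that of the other library and always lies within the SD of the mean, so it says nothing about stability. Of the other 87, 61 counted as unchanged, and none changed direction where a call existed, which among the ratios was Homer1-204 alone. DESeq2 size factors and library totals could move little, with log2 ratios of library size of -0.267 and -0.268 against -0.270 with TMM. FPKM and TPM over protein-coding genes change the unit of a level. The tally therefore says little about stability. For levels, log2 ratios, shares and short over long ratios, unchanged meant a move smaller than the spread between libraries or the counting interval. The numbers of genes and of Homer1 transcripts past 2-fold have neither, and were judged by the change in the number itself. Of their alternatives, 4 of 5 for genes and 3 of 4 for Homer1 transcripts counted as unchanged. These include 214 genes with ERCC totals against 164 with TMM. Scaling to ERCC totals moved the median of all genes by -0.25 and turned 78.5% of 2-fold calls to lower in replicate 2, against 45.1% with TMM (168 lower and 46 higher, against 74 lower and 90 higher). It gave log2 ratios of -0.84 for Homer1, -0.54 for Homer2, -0.50 for Homer3 and -1.86 for Homer1-204, and left both partner lists lower throughout and 8 of 12 delayed genes lower.

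On other scales the mean level was 44.3 FPKM for Homer1, 24.2 FPKM for Homer2 and 24.1 FPKM for Homer3, or 143.5, 78.3 and 78.1 TPM over protein-coding genes only, and Homer2 was 29.2 TPM in the second table. Single libraries spanned 59.4 to 83.9 TPM for Homer1. As a share of expected counts Homer1-204 held 24.5% of the gene, against 15.1% of TPM. A minimum mean count of 10 raised the genes past 2-fold to 749 from 164, and the second table gave 2 Homer1 transcripts past 2-fold in place of 1, adding Homer1-211. The mean short over long ratio, 0.869, was 0.914 by the second table and 0.873 with a pseudocount, and lay at 0.639 to 1.10 in single libraries. For the read-through form these values were 0.298, 0.314 and 0.316, and 0.156 without replicate 1 and 0.439 without replicate 2. Taking only protein-coding transcripts leaves both ratios as they are by construction. No paired analysis was possible because the 2 libraries form 1 group. Transcripts with few reads of their own are limited by read assignment, and 2 animals limit every SD.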
